A study of Mus musculus with 2 samples.

Results

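One-exon antisense loci are stretches of the genome where reads without a splice junction ran on the strand opposite to an annotated gene. A member locus carried the novelty class Antisense, held models of 1 exon only, and overlapped a locus of the same kind on the same strand in the other library. By that rule 3274 of 11910 one-exon antisense loci of replicate 1 and 3178 of 7040 of replicate 2 were members. Joined where they overlapped, they formed 3017 regions of 15396 regions in all, with 8542 regions in replicate 1 alone and 3837 in replicate 2 alone. Of the 3017 regions, 3013 lay on mouse chromosomes or scaffolds and 4 on spike-in RNAs, and 1 of the regions in replicate 2 alone was on a spike-in. The counts so far include spike-ins, and those that follow leave them out until the last paragraph. The members were thus chosen by the mapped position and strand of reads in both libraries, and presence in both, and everything that makes a span longer or more often read, entered the choice of members. Values that follow from it are given as a description.

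Both libraries were long-read RNA libraries of adrenal gland from female B6CASTF1/J mice, first-generation hybrids of the C57BL/6J and CAST/EiJ strains, aged 36 days, with no treatment named in the labels. The labels number them as biological replicates 1 and 2 of 1 group, so that no conditions were compared. One field names the same animal for both and another names different animals, and the difference between the libraries may therefore be technical. Replicate 1 was made from 1 µg of RNA, and no quantity is given for replicate 2.

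Natural antisense transcripts are RNAs read from the strand opposite to a gene. Some start near the promoter of the sense gene and run away from it, some start inside the gene or beyond its 3' end, and known examples act on the chromatin, splicing or stability of their sense partner. Antisense reads without a splice junction can also arise during library making, when an oligo(dT) primer anneals to a run of A in place of a poly(A) tail, or when a complementary strand is copied from a sense molecule. The strand of an unspliced read rests on its primers and tail alone, since it holds no junction with splice-site bases.

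The ends of the regions carried a sequence feature that the rule did not use. The 3' end used was that of the most read locus of a region. For 879 of the 3013 mouse regions the bases around it could be read, because an annotated exon of either strand holds them. In 490 of these, or 55.7% (95% Wilson interval 52.4% to 59.0%), at least 12 of the 20 bases after the end were A, a run in the genome itself and in the direction of the antisense reads. The sequences printed here show ends with and without such a run, among the most read regions and among genes of adrenal cell types. They are given 5′ to 3′ on the antisense strand, from the annotated transcripts of GENCODE M21 on GRCm38. The last 10 bases of the most read locus are in lower case and the 20 bases after its end in capitals. Coordinates are counted from the outer 3' end of the joined region. Where the loci of a region end at different bases, coordinates and printed bases need not match. The match was not checked. The region against Fdx1 lay in exons for 34.4% of its length only, so its coordinates may not be the place of the printed bases.
Antisense to Actb, chr5:142903645-142903674, plus strand: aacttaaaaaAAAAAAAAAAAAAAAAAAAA
Antisense to Tacc1, chr8:25158024-25158053, plus strand: agattaaggcAAAAAAAAAAAAAAAAAAAA
Antisense to Fdx1, chr9:51945837-51945866, plus strand: atgatgggtgAAAAAAAAAAAAAAAAAAAA
Antisense to Nr2f2, chr7:70353984-70354013, plus strand: actttaccttAAAAAAAAAAAAAAAAAAAC
Antisense to Dhcr7, chr7:143847867-143847896, minus strand: ttcctggggtAAAAACAAAAACAAACAAAG
Antisense to Dpysl2, chr14:66805427-66805456, plus strand: atttagtattAAAAAAAAAAAAAATCTCTC
Antisense to Gm2a, chr11:55110208-55110237, minus strand: cccattcttgAAGGCATCATACCAAAAAAA
Antisense to Cdv3, chr9:103355304-103355333, plus strand: ttctttatccCTAAGGGAAAAGAAATGTAA
Antisense to Gnb1, chr4:155557633-155557662, minus strand: caaagtcttgCTACAAATGACTTATATTTA
Antisense to Cavin1, chr11:100958465-100958494, plus strand: ggggtgtattCCCCCCCCCCCGGTTTGTTT
Antisense to Ptp4a2, chr4:129839131-129839160, minus strand: aaaaaaaaaaGCCTACTACTTCTGAGGCCA
The most read loci against Actb, Tacc1 and Fdx1 were followed by 20 A, and those against Cdv3, Gnb1 and Cavin1 by 11, 8 and 0 A of 20. The end against Ptp4a2 lay just past a run of A and had 4 A after it.

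Among the ends that could be read, the A-rich feature belonged to the 3' side. Readable 3' ends lay within annotated exons, 583 of them at regions in the body of the sense gene, 271 at its 3' end and 25 at its start. The regions with readable 5' ends need not be the same ones. The median number of A was 14 of 20 after the 3' end, against 5 of 20 before the 5' end, where 12 of 810 readable regions (1.48%, 0.849% to 2.57%) were A-rich. In 75 regions all 20 bases after the 3' end were A. The poly(A) signals AATAAA and ATTAAA, searched on the antisense strand in the last 50 bases, stood in 95 of 879 regions (10.8%, 8.92% to 13.0%), against 72 of 810 (8.89%, 7.12% to 11.0%) in the first 50 bases after the 5' end. Regions of 1 library had A-rich ends as well, at 44.4% (41.8% to 47.0%) of 1400 readable regions in replicate 1 alone and 56.1% (51.6% to 60.4%) of 487 in replicate 2 alone. A-rich ends were fewer among members that overlap coding bases, at 34.7% (27.5% to 42.7%) of 147, than among those that do not, at 60.0% (56.4% to 63.5%) of 732. Coding sequence and untranslated sequence differ in base composition, which was not corrected for. Of members with 50 or more reads, 32 of 72 readable ends were A-rich (44.4%, 33.5% to 55.9%).

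**Figure D1:**
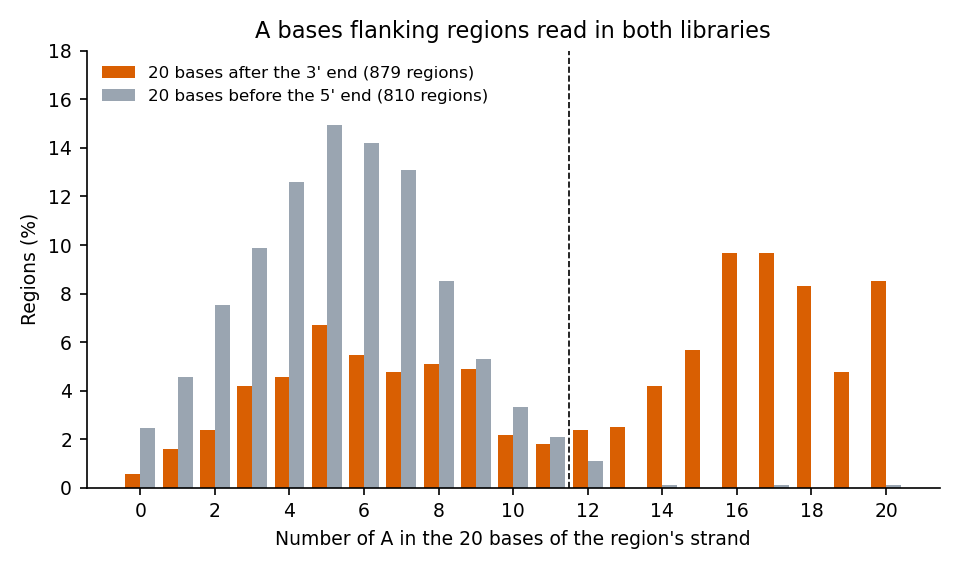
Share of regions read in both libraries (vertical axis, percent) by the number of A in the 20 bases after the 3' end, on 879 regions, and before the 5' end, on 810 regions. Right of the dashed line, at 12 or more A, lie 55.7% of the 3' ends and 1.48% of the 5' ends.

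The 3' ends repeated between the libraries more closely than the 5' ends. Of the 2690 regions made of 1 locus in each library, 2062 (76.7%) had 3' ends within 10 bases of each other, and 1598 (59.4%) ended at the same base. The 5' ends lay within 10 bases in 1018 regions (37.8%), with a median distance of 200 bases. Ends within 10 bases were found at 77.9% of the 417 A-rich 3' ends, at 63.6% of the 324 readable ends that were not A-rich and at 78.6% of the 1949 ends that could not be read. The part of A runs in this agreement was not tested. The other 323 regions joined more than 1 locus of a library, at most 4.

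Most regions were read only a few times. Replicate 1 held 26166 reads in mouse member loci and replicate 2 held 12014, which is 66.8% and 71.8% of the reads of all mouse one-exon antisense loci and 2.14% and 2.65% of all 1223776 and 453761 reads. The median region had 2 reads in replicate 1 and 1 read in replicate 2, and 786 regions had 1 read in each. At least 5 reads in each library were found in 340 regions and at least 20 in each in 60. The median length was 1341 bases, with quartiles of 572 and 2279 and a maximum of 8678. In 22 regions the deposited span was 1 base, among them the region against Net1 described further on, and these held 100 and 85 reads in all. Just inside the rule, the shortest overlap was 1 base and 168 regions overlapped by under 50 bases. Just outside it, 39 loci of 1 library lay within 50 bases of a locus of the other without overlapping, 2 of them with no gap. Levels are given as CPM, reads per 1000000 reads of annotated genes, of which there were 1144572 and 414588. A count of 0 allowed up to 2.62 CPM in replicate 1 and 7.24 CPM in replicate 2, taking 3 reads as the limit. Intervals and this limit cover counting error only. Marker genes of the cortex showed the tissue to be adrenal, with Star at 10684 and 8799 CPM, and genes of skeletal muscle had 702 and 3 reads in all, with 0 antisense regions.

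Across the 3013 regions, log2 CPM correlated between the libraries with a Pearson's r of 0.712 and a Spearman's rho of 0.516, and with 0.560 and 0.313 over the 625 regions of at least 10 reads in total. These are correlations across regions of the same libraries, which are no independent replicates, and part of the range comes from the filter on reads.

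**Figure D2:**
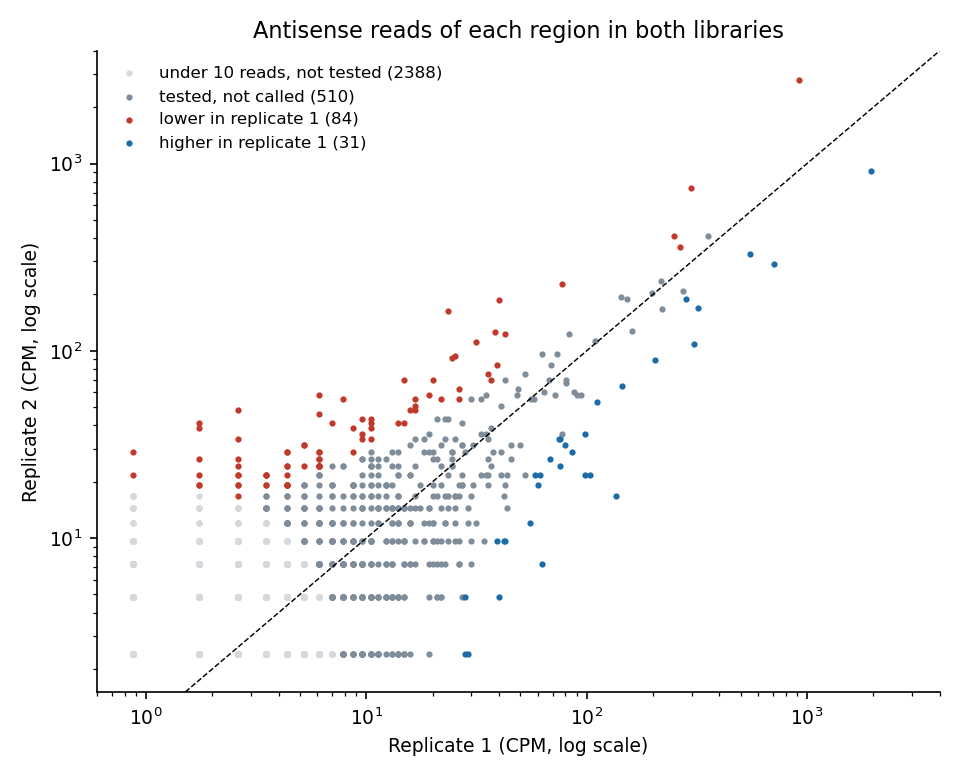
Level of each of the 3013 mouse regions in replicate 1 (horizontal, CPM, log scale) and replicate 2 (vertical, CPM, log scale), coloured by the exact binomial test. The dashed line marks equal levels, 2388 regions had under 10 reads, and 31 and 84 regions were called higher and lower in replicate 1.

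The 20 regions with the highest mean level held 34.3% of member reads in replicate 1 and 28.8% in replicate 2. Of these, 15 lay against protein-coding genes, 17 lay wholly within exons and 11 had 50% or more of their length in the 3' untranslated region (UTR). The largest was antisense to Gm26917, a lincRNA next to ribosomal RNA on chromosome 17, from 39843013 to 39846245, with 1049 and 1163 reads. It covered nearly the whole gene, which had 245 and 67 reads, and began 108 bases past the 3' end of CT010467.1 on that gene's own strand. The neighbouring rRNA gene CT010467.1 had 807 and 120 antisense reads and 2 and 0 sense reads. Copies of ribosomal RNA are near-identical, so the assignment of these reads to a copy is uncertain. The regions against these genes held 7.09% and 10.7% of all member reads.

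The region against Actb, the gene of the cytoskeletal beta-actin, was second by mean level, with 2233 reads (1951 CPM) in replicate 1 and 379 reads (914 CPM) in replicate 2. It covered 142901399 to 142903654 on chromosome 5, began beyond the 3' end of the gene and ended in its 3' UTR. The run of 20 A printed above followed the end of its most read locus. Actb itself had 1831 and 369 sense reads, so that antisense reads were 122% and 103% of the sense reads. In CPM the sense strand stood at 1600 in replicate 1 and 890.0 in replicate 2, the same order as the antisense strand. The lincRNA Tmem250-ps had 339 and 306 antisense reads, against 42 and 5 sense reads. Among regions with at least 20 antisense reads and at least 1 sense read, the 4 highest ratios of antisense to sense reads included those at CT010467.1, at Dpysl2 (156 and 7 antisense, 3 and 2 sense) and at Gm20300 (113 and 15 antisense, 2 and 2 sense).

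Sense and antisense strands stood in different orders among the next regions. Kcnk3, a background potassium channel of adrenal cortical cells, had 405 and 170 antisense reads, against 2105 and 1314 sense reads, so the sense strand prevailed in both libraries. Gm2a, the ganglioside activator of the lysosome, had 312 and 86 antisense reads, against 292 and 133 sense reads, and the strand with more reads differed between the libraries.

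Antisense reads also exceeded sense reads in both libraries for the tyrosine phosphatase Ptp4a2 (632 and 137 antisense, 156 and 82 sense), for Cdv3 (286 and 170 antisense, 70 and 15 sense), for Tacc1, a coiled-coil protein of the centrosome (249 and 98 antisense, 50 and 18 sense), and for Sept2, a filament-forming septin (174 and 78 antisense, 23 and 13 sense). The retinaldehyde reductase Dhrs3 (303 and 148 antisense, 65 and 28 sense), the transcription factor Tbx3 (163 and 80 antisense, 78 and 44 sense) and the heparan sulfate proteoglycan Sdc4 (88 and 94 antisense, 22 and 5 sense) showed the same order. For the heterotrimeric G protein subunit Gnb1 (367 and 70 antisense, 299 and 82 sense) and the caveolar coat gene Cavin1 (353 and 45 antisense, 114 and 48 sense), antisense reads exceeded sense reads in replicate 1 and not in replicate 2. Plin1, which coats the lipid droplets of fat cells, had fewer antisense than sense reads in both (234 and 37 antisense, 398 and 115 sense). The nuclear RNA Malat1 had 183 and 53 antisense reads, while its sense reads were 4333 in replicate 1 and 34 in replicate 2. Of the 20 regions, 17 lay above their sense gene in replicate 1, 15 in replicate 2 and 14 in both. They were ranked by antisense level, so this order was favoured by the choice. Over all 3000 members with a sense gene, 334 (11.1%) lay above it in replicate 1 and 466 (15.5%) in replicate 2.

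**Figure D3:**
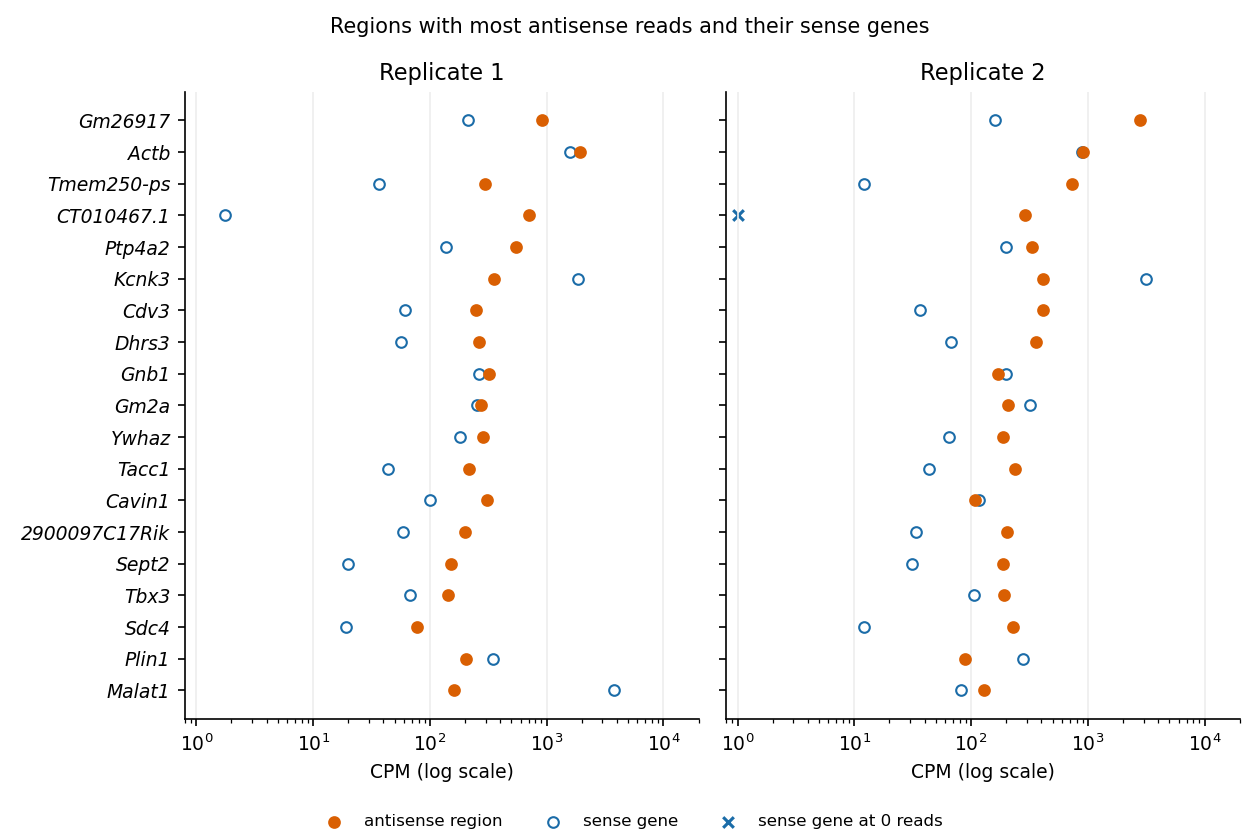
Regions among the 20 with the highest mean antisense level, 19 of them drawn (filled points), and their sense genes (open points) in replicate 1 and replicate 2, in CPM on log axes, named by the sense gene. Antisense points lie right of the sense points for 16 of the 19 regions in replicate 1 and 14 in replicate 2, and CT010467.1 had 0 sense reads in replicate 2.

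Most regions lay in the body of the sense gene, further than 500 bases from both of its ends. The body is most of the length of a long gene, and the sense genes had a median span of 37847.5 bases. No share expected from length was computed, so no preference for the body is read from this. A sense gene was found for 3000 regions, in 95.9% of them a protein-coding gene, and 13 regions had no gene of GENCODE M21 on the other strand. Within 500 bases of the annotated gene start lay 200 regions (6.67%, 5.83% to 7.62%), within 500 bases of the annotated 3' end 324 (10.8%, 9.74% to 11.96%), near both ends 19 (0.633%, 0.406% to 0.987%) and in the body 2457 (81.9%, 80.5% to 83.2%). Counted by reads, the 3' end took 35.3% in replicate 1 and 23.6% in replicate 2, and the body 53.5% and 61.0%. Single regions weigh on the share of the 3' end, with 2233 and 379 reads against Actb and 807 and 120 against CT010467.1. Regions in 1 library alone lay at the 3' end less often, at 5.14% (4.69% to 5.63%) of 8408 in replicate 1 and 3.07% (2.57% to 3.67%) of 3811 in replicate 2. At gene starts the shares of 1 library were 6.93% (6.41% to 7.50%) and 3.54% (3.00% to 4.18%). Among members with at least 5 reads in each library, 78 of 338 (23.1%, 18.9% to 27.9%) lay at the 3' end and 22 (6.51%, 4.34% to 9.66%) at the start. Span and reads entered the choice of members, and the part of length in these differences was not tested. Median lengths in the body were 1371 bases for members, and 783 and 422.5 bases for regions of replicate 1 and replicate 2 alone.

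**Figure D4:**
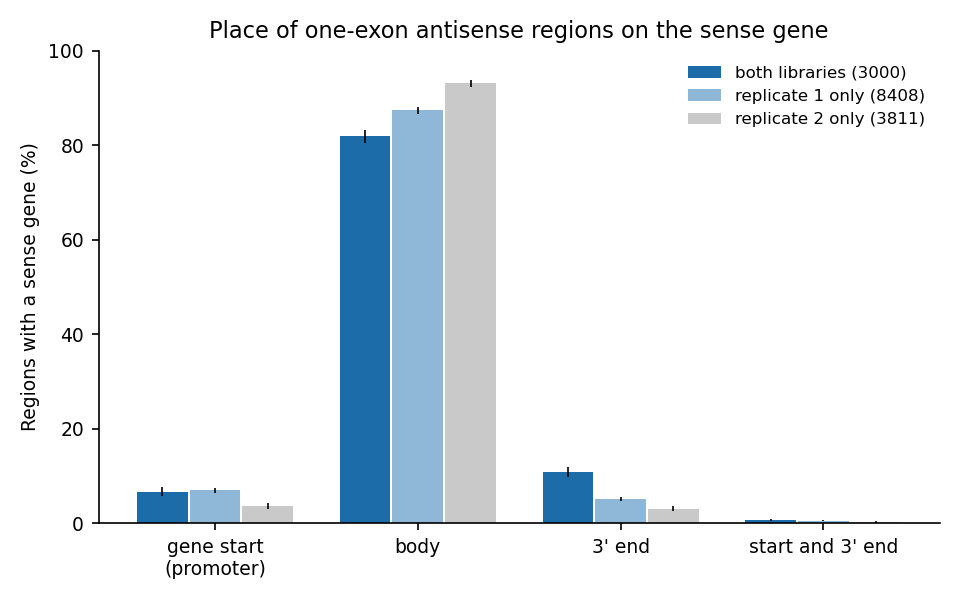
Share of regions (percent, bars, with 95% Wilson intervals) at the start, in the body, at the 3' end and at both ends of the sense gene, for 3000 members, 8408 regions of replicate 1 alone and 3811 of replicate 2 alone. Members lay at the 3' end in 10.8%, against 5.14% and 3.07%.

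The 3' UTR was also met away from the annotated gene end. Of the 3000 members, 956 (31.9%, 30.2% to 33.6%) overlapped a 3' UTR of the sense gene and 657 (21.9%, 20.5% to 23.4%) lay wholly inside it, against 10.4% (9.73% to 11.0%) of regions of replicate 1 alone and 9.26% (8.38% to 10.2%) of replicate 2 alone. Wholly within exons lay 896 members (29.9%), wholly outside exons 1075 (35.8%), and 1029 (34.3%) lay partly in exons. Among the 338 members with at least 5 reads in each library, 56.8% lay wholly in exons. Regions of 1 library lay wholly outside exons in 48.3% (replicate 1 alone) and 60.0% (replicate 2 alone). Both ends lay within 100 bases of the ends of 1 sense transcript in 18 members, among them the regions against Gm26917, mt-Nd6 and mt-Cytb.

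At gene starts, 68 members (2.27%) began within 500 bases of the annotated start of the sense gene. Others began further inside the gene, in the direction of its start. The most read region of this place lay against Dhrs3, from 144893077 to 144893582 on chromosome 4, wholly in exons. The next were against Fosl2, a component of the AP-1 transcription factor, with 78 and 11 antisense reads and 86 and 26 sense reads, and against Gm4673, with 52 and 11 antisense reads and 7 and 1 sense reads. Epas1, a hypoxia-inducible transcription factor, had 72 and 3 antisense reads and 14 and 21 sense reads, so its strands stood in opposite order in the libraries. RefSeq windows of 300 bases around gene starts were available for 1887 of the 2432 sense genes. A window of the sense gene was overlapped by 164 members. Of these, 118 were among the 219 regions classed at the gene start or at both ends. The other members had been placed in the body or at the 3' end, by the ends of the annotated gene. The overlapped windows held a median of 22 CG dinucleotides, against 7 in all 32851 windows, with at least 10 CG in 78.7% against 43.5%. The dinucleotide CG reads the same on both strands. Levels of the genes behind all windows were not matched to those of the members.

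Annotated genes of the same strand were looked for at each region and upstream of its start. Genes that start downstream were not looked for. Such a gene ended within 5 kb upstream of the region in 382 members (12.7%). For regions of replicate 1 alone and replicate 2 alone this share was 10.1% and 8.53%. A gene of their own strand was overlapped by 61 members (2.03%), against 1.32% and 1.08% of regions of 1 library. The rule took only loci classed as Antisense, not as part of an annotated gene, so nothing is read from this low share. Mitochondrial DNA held 10 regions. Their largest against an annotated gene was that against mt-Nd6, with 6 and 13 antisense reads and 4 and 1 sense reads, and a region with no gene on the other strand had 22 and 12 reads. The mitochondrial genome is transcribed along both of its strands.

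The sense genes numbered 2432, of which 2001 had 1 region and 431 had more. Auts2, Frmd5 and the transcription factor gene Nfia had 6 each. Counting all reads of a gene, the sense genes had a median mean level of 25.2 CPM, with quartiles of 7.99 and 78.7 (25.3 CPM in replicate 1 and 24.1 in replicate 2). All 12760 annotated genes with a read in both libraries had a median of 19.7 CPM, and the sense genes of regions in replicate 1 or replicate 2 alone had 18.2 and 15.8 CPM. Counting only reads of Known, NIC and NNC models, which match an annotated junction chain or hold a new one, the medians were 17.6 CPM for the sense genes, 252 of which had 0 such reads in both libraries, and 16.5 CPM for the same 12760 genes. Among genes with such reads in both libraries, the median was 34.1 CPM for 1863 sense genes and 24.5 CPM for all 10788. Sense genes were also longer, with a median span of 37847.5 bases, against 21394 for all genes read in both libraries, and sense genes of regions in replicate 1 or replicate 2 alone had medians of 37812.5 and 56516 bases. At 0 sense reads in both libraries stood 85 regions, the most read of them against Tbc1d9 with 40 and 9 antisense reads among those with an annotated gene.

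Members were found at more genes the higher the gene was read. The share of genes with a region was 10.9% (10.05% to 11.9%) at 1 to 10 CPM, 19.6% (18.6% to 20.6%) at 10 to 100 CPM, 23.2% (21.4% to 25.1%) at 100 to 1000 CPM and 27.2% (19.5% to 36.5%) at 1000 CPM and over, and 17.3% over all 12760 genes. The intervals of the highest classes overlapped. Median gene length went the other way, from 25726 bases in the lowest class to 7799 bases in the highest.

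**Figure D5:**
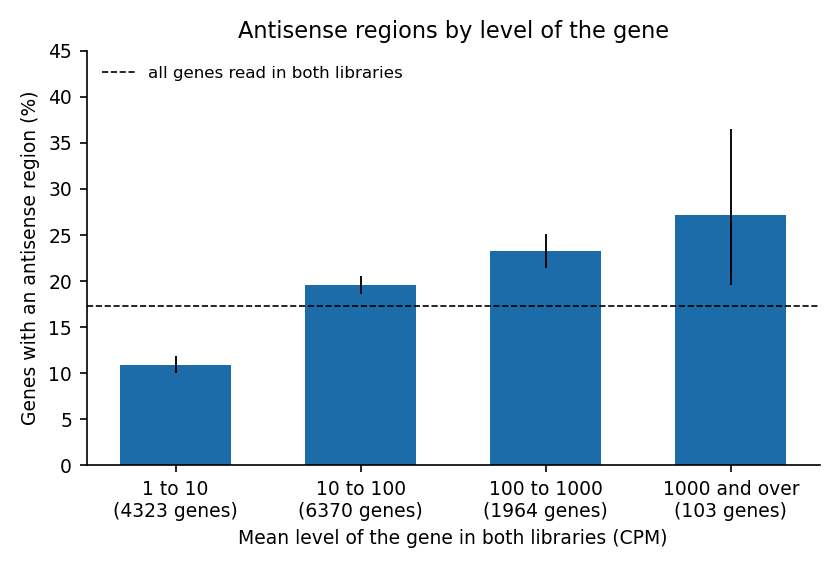
Share of annotated genes with a member region on the other strand (bars, percent, with 95% Wilson intervals) by mean level of the gene in 4 classes of CPM. The share was 10.9% at 1 to 10 CPM and 27.2% at 1000 CPM and over, and the dashed line marks 17.3% for all genes.

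Beyond presence, antisense and sense levels were little correlated across regions. Antisense reads were a median of 8.00% of the sense reads in replicate 1, over 2897 regions with a sense read, and 14.3% in replicate 2, over 2770 regions. The depths differed, and the part of depth in these medians was not tested. Spearman's rho between antisense and sense level was 0.136 in replicate 1 and 0.058 in replicate 2 across 3000 regions, and 0.069 and -0.038 across those with at least 10 antisense reads in total. In both libraries 246 regions stood above the sense gene, 134 of them with at least 10 reads. Among 536 regions with at least 10 reads on both strands, the log2 ratio of replicate 1 to replicate 2 on the antisense strand had a rho of -0.026 with that on the sense strand. These are descriptions across regions of the same libraries. In tissue RNA, fewer cells of a type and less RNA per cell cannot be told apart.

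Genes of the adrenal cell types carried such regions at a range of levels. The 13 lists cover cell types and also general functions such as the cytosolic ribosome and oxidative phosphorylation. Of their 145 genes read in both libraries, 38 (26.2%) had a region, against 17.3% of all genes read in both. The lists were not matched for level, and the share of all genes was 23.2% at 100 to 1000 CPM and 27.2% at 1000 CPM and over. Steroid synthesis had regions at 6 of 14 genes, with 156 and 86 antisense reads beside 78770 and 35719 sense reads of the list. Star, which moves cholesterol into mitochondria, had 42 and 29 antisense reads, against 12228 and 3648 sense reads. The region lay in the gene body, from 25811224 to 25814153 on chromosome 8, with 1270 of its 2930 bases in the 3' UTR. Fdx1, the ferredoxin that carries electrons to the mitochondrial steroid hydroxylases, had 2363 and 621 sense reads. Its region whose most read locus is followed by the printed run of A had 17 and 29 antisense reads. Another region, wholly outside exons, had 28 and 12. Hsd3b1, a 3-beta-hydroxysteroid dehydrogenase, had 31 and 2 antisense reads, against 10967 and 4427 sense reads. Mrap, the accessory protein of the corticotropin receptor, had 22 and 6, and Nr5a1, the steroidogenic transcription factor, 13 and 7. Cyp11b1, the enzyme that makes corticosterone, had 3 and 1 antisense reads, against 9489 and 3370 sense reads. Antisense reads of Star, Hsd3b1 and Cyp11b1 were thus under 1% of the sense reads in both libraries. The shares were higher for Mrap, at 4.04% and 1.91%, and for Nr5a1, at 1.46% and 2.72%. For Fdx1 they were 0.719% and 4.67% in the region with the run of A, and 1.18% and 1.93% in the other.

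The other lists gave counts around these. Cholesterol handling had regions at 8 of 19 genes, led by Soat1, which esterifies cholesterol for storage. The largest of its regions had 103 and 24 antisense reads and covered 6459 bases of its 3' UTR, and the gene had 267 and 106 sense reads. Dhcr7, an enzyme late in cholesterol synthesis, had 87 and 10 antisense reads, against 506 and 237 sense reads. The zona glomerulosa list had regions at 4 of 10 genes read in both libraries, namely Kcnk3, Dab2, Agtr1a and Wnt4, and at Cacna1d, whose sense strand had 4 and 0 reads. The X-zone list had 3 of 5, with Thrb, a thyroid hormone receptor, at 41 and 31 antisense reads and 5 and 8 sense reads, and Akr1c18, which inactivates progesterone, at 9 and 2 antisense reads in its larger region and 8239 and 3579 sense reads. The medulla list had 5 of 19, with the granin Chgb at 7 and 1 antisense reads beside 4184 and 1056 sense reads. Adipocyte genes had 3 of 12, immediate early genes 2 of 13, oxidative phosphorylation 3 of 14, capsule and stroma 2 of 8, endothelial genes 1 of 10, cytosolic ribosome genes 1 of 12, macrophage genes 0 of 8 and skeletal muscle genes 0 of 3. Lists of this size, with genes of unequal length and level, are given as counts.

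The reads of a region were set against the scaled depth of the libraries with an exact binomial test, two-sided, and p-values were adjusted over all 10861 genes and loci outside the annotation with at least 10 reads. It sets reads against counting error and compares these libraries, not conditions. Of the 3013 mouse members, 625 had enough reads. Of these, 31 were higher in replicate 1, against a background of 6.51% of all features tested, and 84 were lower, against 8.6%. As a share of members tested this was 4.96% and 13.4%. The median log2 ratio of replicate 1 to replicate 2 was -0.11 for tested members and 0.01 over all features. The rule asks for a read in each library, so a region absent from replicate 2 could not enter, and nothing is read from these shares. In the body 11 were higher and 65 lower of 431, at the 3' end 14 and 14 of 126, and at the start 3 and 2 of 56.

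Ratios were ranked among called regions with at least 20 reads, so being called was part of the choice. The largest were at Ccn1, a matrix-associated signalling protein (33 and 1 reads, log2 ratio 3.07), and Pam, which amidates peptide hormones (32 and 1, 3.03). Next came Epas1 (72 and 3, 2.89) and Dpysl2 (156 and 7, 2.87). Adjusted p-values of the exact binomial test for these 4 were 0.011, 0.011, 2.3e-05 and 4.9e-11. The smallest were at Net1, a guanine nucleotide exchange factor (3 and 20 reads, -3.83), Hnrnpu, a nuclear RNA-binding protein (7 and 24, -3.11), Nfia (27 and 68, -2.82) and Arglu1, a coactivator and splicing factor (7 and 19, -2.78), with adjusted p-values of the exact binomial test of 4.5e-08, 8.6e-08, 1.1e-18 and 1.4e-05. The sense reads of Hnrnpu were 380 and 101 (332 and 244 CPM), and those of Nfia 26 and 11. Actb antisense reads had a log2 ratio of 1.02, and Gm26917 antisense reads one of -1.68.

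Spike-in RNAs, added with a known strand, gave a count of reads on the opposite strand for those read on the annotated strand. For the spike-ins with any sense read, 52 in replicate 1 and 44 in replicate 2, the antisense reads were 0 beside 25970 sense reads and 1 beside 16581. A count of 0 allows up to 0.0116% in replicate 1, and the share in replicate 2 was 0.00603% (0.00106% to 0.0342%). This share leaves out, by their outcome, the 4 spike-ins without a sense read, which had 267 and 126 reads. One-exon antisense loci, members or not, had 3.42% and 4.03% as many reads as annotated genes. Priming at runs of A in the genome was not tested with the spike-ins, so nothing is read from these shares side by side. The 4 spike-in regions were of another kind. ERCC-00009 had 207 and 111 reads, ERCC-00116 49 and 12, ERCC-00099 6 and 2 and ERCC-00059 5 and 1, all on the strand opposite to the annotation and 0 on the annotated strand in both libraries. For these RNAs the strand in the deposited annotation and the strand of the reads disagree. Beyond the counts of regions and loci in the opening, they enter no other value.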

How the data were processed

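Long-read RNA-seq of 2 libraries was used. The deposited values are read counts of each transcript model, not normalized by the authors per the file headers, beside exon numbers and lengths and annotations of the models on mm10. Per the labels' protocols the ENCODE long-read pipeline for mouse made them. For aligner, versions and filters nothing is given in the sources used here. Models name TALON as their source in the annotation, per the file headers.

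One-exon Antisense loci were joined across libraries by an overlap of at least 1 base on the same strand. Sense genes, exons and UTRs came from GENCODE M21. A gene of the other strand with the longest overlap was the sense gene. Depth was 1144572 and 414588 gene reads. Ratios used CPM scaled by TMM (edgeR 4.0.16, factors 1.03 and 0.976) with a pseudocount of 1. Reads were tested with exact binomial tests (scipy 1.17.1) and Benjamini-Hochberg adjustment at 0.05, and the test was tried on simulated data. Bases at the ends of the most read locus were read from annotated exons of either strand, which matched RefSeq in 19313 compared windows with 0 differing. No genome sequence was used.

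Regions named are the 20 highest, the 4 largest and 4 smallest called ratios with at least 20 reads, the 3 highest of each place, those of list genes and the 4 highest ratios to a sense gene with a read. Not all of them are printed, and values of some are not reported here. Tbc1d9, Auts2 and Frmd5 were chosen after their values were seen. The members and lists were chosen with earlier results of these data known.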

Additional observations from a re-analysis of the deposited data

How the results depend on the processing

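The number of recurrent regions, 3013, became 2915 when 50% of the shorter span had to be shared and 2501 with 3' ends within 100 bases. It was 1114 with at least 2 reads in each library and 340 with at least 5. With the strand of replicate 2 turned round, 11 regions overlapped, a count limited to places with genes on both strands. Calls lower in replicate 1 numbered 84, between 75 and 84 under the other scalings and without a read filter, and 41 with replicate 1 thinned to the depth of replicate 2, where fewer regions were tested. Calls higher were 31, and 21 to 34 under these settings. Windows of 250 bases gave 5.70% at the start, 84.1% in the body and 9.67% at the 3' end. Windows of 1000 bases gave 10.6%, 72.7% and 15.7%, with 1.00% at both. Against the ends of the most read known transcript, for 2466 regions, the shares were 7.87%, 78.2% and 13.1%. With the span of 1 library alone, the start held 6.47% to 6.50%, the body 83.7% to 84.5%, the 3' end 8.77% to 9.23% and both ends 0.300% to 0.567%. The median level of the sense genes, 25.2 CPM, was 17.6 with Known, NIC and NNC reads alone, 33.0 for regions with at least 5 reads in each library and 24.1 to 25.3 in single libraries. A-rich 3' ends were 41.0% at 16 or more A and 54.2% to 57.8% in single libraries. Counting A before or after the end gave 59.3%, and members with at least 5 reads in each library lay wholly in exons in 56.8%, both settings chosen after the data were seen. The part of depth in these differences was not tested. Of 209 ratios of named regions recomputed, 198 kept their call, 9 lost it (Dhrs3, Ywhaz, Thrb, Star, Fosl2 and Scarb1 under 1 or 2 settings each), 2 gained it (Hsd3b1), and 0 turned round with a call. No paired analysis was possible because both libraries belong to 1 group.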
